A study of Mus musculus with 14 samples.

Results

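Liver gene expression was compared between mice given 8 mg/kg body weight of furan and mice given corn oil alone. The comparison rests on 9 of the 14 arrays of the series: the 5 whose titles name 8 mg/kg furan and BrdU and the 4 whose titles name the BrdU control. The remaining 5 arrays, from mice at 1 mg/kg furan, entered the fit for their spread and their slides. All mice were female B6C3F1, a hybrid laboratory strain used in long-term toxicity tests, bought at 5 to 6 weeks of age. Furan in the treated groups, or the corn oil vehicle in the controls, was given by gavage for 21 days, and liver was taken 4 h after the last dose. Every mouse, the controls included, also drank bromodeoxyuridine (BrdU), a thymidine analogue that is built into newly made DNA, for 5 days before necropsy, so the comparison describes furan in livers that all held BrdU. The design text names the mice within each dose group as biological replicates. The labels give neither the cage nor the litter of a mouse.

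Furan is a small, volatile ring compound that forms when food is heated and that causes liver tumours in rodents. Cytochrome P450 of hepatocytes opens the ring to a reactive dialdehyde that binds glutathione, amines of proteins and bases of DNA. Hepatocytes dispose of such aldehydes through glutathione transferases and through enzymes that reduce or oxidise the carbonyl group. They also make most plasma proteins, run the urea cycle, and conjugate steroids and bile acids to sulfate.

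RefSeq promoters (build GRCm38.p6, from 250 bases before to 50 after a gene's start) are shown for 4 of the 11 largest rises, picked after the matches were seen as examples of 4 different motifs searched on both strands. Cbr3, with a heat shock core, and Gdf15, with an E-box, are not shown. Capitals mark 1 motif in each window, and matches to other searched motifs in these windows, such as the TATA and CCAAT boxes, are not marked. In Cdkn1a (chr17:29090729-29091028, plus strand) they mark both cores of a p53 element and the bases between them. In Jun (chr4:95052173-95052472, minus strand) they mark GAANNTTC, the core of a heat shock element. In Tubb2a (chr13:34077959-34078258, minus strand) they mark TGACGTCA, the cAMP response element, and in Cxcl10 (chr5:92348840-92349139, minus strand) they mark TGANTCA, the AP-1 element. A gene can have more than 1 annotated start. The window at another start of Cdkn1a (chr17:29093519-29093818, plus strand) held no p53 pair and is not shown.
Cdkn1a: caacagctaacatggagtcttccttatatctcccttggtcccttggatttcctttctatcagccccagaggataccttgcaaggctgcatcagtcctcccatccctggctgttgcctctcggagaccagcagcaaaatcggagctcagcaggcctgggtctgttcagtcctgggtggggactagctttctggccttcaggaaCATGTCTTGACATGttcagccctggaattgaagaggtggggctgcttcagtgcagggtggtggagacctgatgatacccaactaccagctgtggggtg
Jun: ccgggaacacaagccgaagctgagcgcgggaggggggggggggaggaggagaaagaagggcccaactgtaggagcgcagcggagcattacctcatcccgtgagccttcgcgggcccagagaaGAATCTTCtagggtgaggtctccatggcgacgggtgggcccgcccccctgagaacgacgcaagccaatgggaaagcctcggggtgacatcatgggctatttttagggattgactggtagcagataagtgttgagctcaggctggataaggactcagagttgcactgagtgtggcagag
Tubb2a: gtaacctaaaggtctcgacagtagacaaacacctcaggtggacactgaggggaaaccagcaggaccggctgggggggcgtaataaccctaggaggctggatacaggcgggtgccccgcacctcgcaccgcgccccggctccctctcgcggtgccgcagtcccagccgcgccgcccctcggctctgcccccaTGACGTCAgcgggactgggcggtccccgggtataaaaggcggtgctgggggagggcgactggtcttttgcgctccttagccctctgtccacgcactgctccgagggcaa
Cxcl10: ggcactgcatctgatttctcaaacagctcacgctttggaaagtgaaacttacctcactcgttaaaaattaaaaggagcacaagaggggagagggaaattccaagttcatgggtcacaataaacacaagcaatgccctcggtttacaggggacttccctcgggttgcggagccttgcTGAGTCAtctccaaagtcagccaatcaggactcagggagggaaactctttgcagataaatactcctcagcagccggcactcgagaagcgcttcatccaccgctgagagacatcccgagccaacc

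Shares count promoter windows, and a gene with several starts counts more than once: the genes that rose had 441 windows for 350 genes. Of these windows 0.680% held the p53 pair (3 of 441), against 0.396% of the 13896 promoters of all tested genes. The 3 were a window of Cdkn1a and overlapping windows of Kdm2b that hold the same site, too few to compare the shares. The heat shock core was in 9.75% of the promoters of genes that rose, 8.70% of those that fell and 5.86% of all. For AP-1 the shares were 6.58%, 8.26% and 5.69%, and for the cAMP response element 2.95%, 1.30% and 2.73%. The antioxidant response element core, TGACNNNGC, was in 12.5% of the promoters of genes that rose, 14.8% of those that fell and 13.9% of all, and in Cxcl10 a match on the other strand overlaps the AP-1 letters. The E-box, CACGTG, was in 9.52%, 7.83% and 9.38%, the TATA box, TATAAA, in 10.66%, 12.2% and 8.62%, and CCAAT in 38.5%, 42.2% and 37.2%. These letters are a description of the windows and say nothing of binding.

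Each array measured liver RNA (Cy5) against one common reference RNA (Cy3), and values are log2 ratios of the former over the latter. Probes well above background in the liver channel numbered 23061 to 29844 per array (41.4% to 53.6%). The 14 arrays lay on 5 slides. Slides 1 to 4 each held 1 control and 1 array at 8 mg/kg (controls 1, 2, 3 and 4 beside furan replicates 1, 5, 2 and 4), and furan replicate 3 lay on slide 5 beside an array at 1 mg/kg. Slides accounted for 87.0% of the first principal component (30.7% of the variance over the arrays), and dose groups for 85.3% of the second (16.7%). The slide was a block in the model. As a check of the tissue, 24 of 25 hepatocyte markers were measured, with mean log2 ratios of 6.80 to 8.32 in controls and 6.77 to 8.10 at 8 mg/kg, so liver RNA lay far above the reference in each array. Their median change was -0.041 (with the other sign under 2 of 7 other scalings), and the one that passed, Cps1, is given with the urea cycle.

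Of 21976 genes tested with limma, 870 passed an adjusted p of 0.05 for 8 mg/kg against control (3.96%, n = 5 against 4). Of these 577 rose (2.63%) and 293 fell (1.33%). Members of the gene lists below all have a symbol, and of the 13773 tested genes with one 4.72% passed. Changes were mostly small: the median log2 change was 0.45 among rises and -0.47 among falls, against 0.002 over all genes. At least a 1.5-fold change was seen in 169 rises and 100 falls, a 2-fold change in 46 and 15, and a 4-fold change in 4 and 2. The sign was the same in all 4 slides that held both groups for 846 of the 870 (97.2%, against 25.7% of all genes tested). On the values of the arrays themselves, the groups did not overlap for 535 of the 870 (61.5%, against 5.56% of all genes). Furan replicate 3, on the slide with no control, lay above the 1 mg/kg array beside it for 546 of the 577 rises and below it for 286 of the 293 falls. All these arrays also entered the fit that made the calls. Agreement in sign, overlap and this pair is therefore largely built in and is no independent support.

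The count depended on the fit and on single arrays. Leaving out 1 array left 311 genes (without furan replicate 1) to 768 (without furan replicate 4), with 327 without control 1, 361 without control 3, 387 without furan replicate 5 and 418 without control 2. Without the slide in the model 276 passed. The split between directions also moved with the scaling: 66.3% of calls were rises here, 53.7% from the liver channel alone, 82.1% from signals the scanner software had processed and 96.4% after median centring, which moved the median of all genes to 0.14. Of the 144 called genes named with values, 51 passed in each of the 9 fits that left out 1 array and 23 under all 25 other settings. Only 40 passed under plain background subtraction, 41 with the scanner's processed signals, 59 without the slide and 34 with the replicate block.

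**Figure D1:**
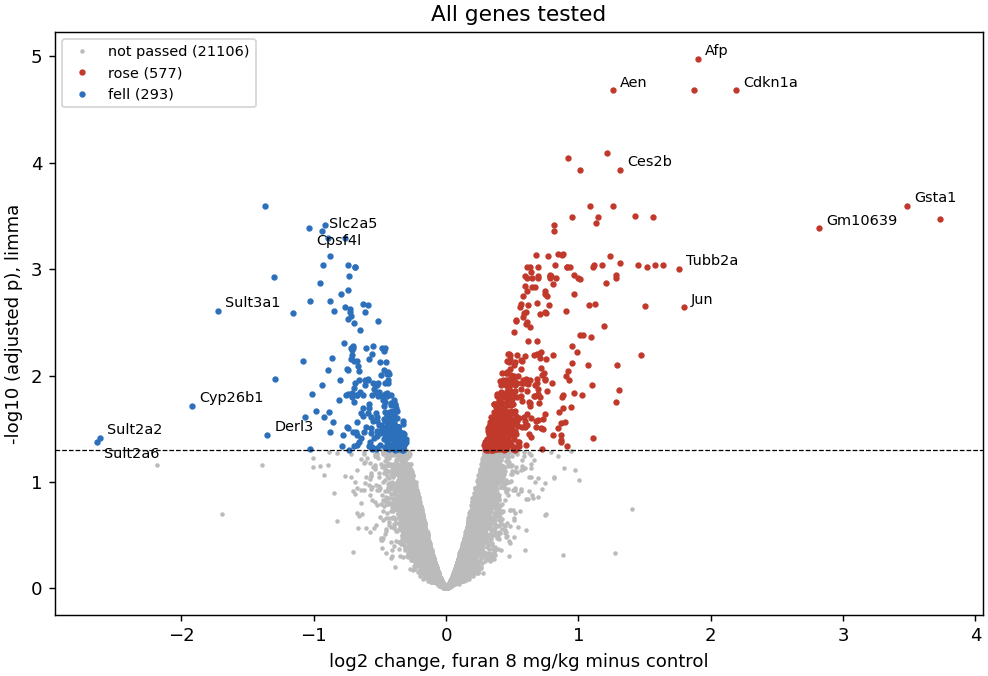
Each point is 1 of the 21976 genes, with the log2 change at 8 mg/kg against control across and -log10 of limma's adjusted p upward; the dashed line is the threshold of 0.05. Rises (577) outnumber falls (293), and Gsta1 and the Sult2a genes lie farthest out among named genes.

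Genes for enzymes that conjugate or reduce reactive compounds held the largest named rises. The alpha-class glutathione transferase gene Gsta1, whose product joins glutathione to electrophiles, lay at 0.47, -0.34, 0.79 and 0.86 in the 4 controls and at 4.78, 3.25, 3.84, 3.52 and 3.87 in the 5 furan livers. Every furan liver was above every control, and the log2 change was 3.48 ± 0.36 (SE), or 11.2-fold (adjusted p = 0.000252). The predicted gene Gm10639 lay at 1.69, 0.96, 1.41 and 1.89 in controls and at 5.30, 3.55, 4.27, 3.87 and 4.36 with furan. It rose by 2.82 ± 0.32 (adjusted p = 0.000413), again without overlap, while its second probe gave 1.30. Gsta2, a paralog, was already high in controls at 4.18, 3.23, 3.88 and 4.12 and reached 5.8, 5.04, 5.06, 5.01 and 5.36. Its change was 1.5 ± 0.23 (adjusted p = 0.00224). Probes of such close paralogs can bind each other's transcripts, which was not tested. At 1 mg/kg these 3 genes stood at -0.47, -0.54 and -0.52 against the same controls.

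Beyond the alpha class, Gstm1 of the mu class rose by 0.88 ± 0.11 (adjusted p = 0.000731). With Gstp2 and Gstm4, 5 of 24 glutathione transferase genes rose and 0 fell (3 to 6 with 1 array left out), and the median over the family was -0.026, so the rises lay in a few members. Cbr3, a carbonyl reductase that turns reactive carbonyls into alcohols, held steady in controls at -2.36, -2.38, -2.37 and -2.44 and stood at 0.23, -1.26, -0.86, -1.37 and -0.72 with furan. The lowest furan liver was clearly above the highest control, and the change was 1.58 ± 0.20 (adjusted p = 0.000918). Akr1c18, a steroid-reducing aldo-keto reductase, rose by 1.28 ± 0.18 (adjusted p = 0.0012) and Cbr1 by 0.52 ± 0.10 (adjusted p = 0.0122), so that 3 of 18 genes of this family rose. The carboxylesterase gene Ces2b rose by 1.31 ± 0.12 (adjusted p = 0.000116), and the aldehyde dehydrogenase gene Aldh3b1 by 0.47 ± 0.082, 1 of 17 in its family. Ugt2b35 rose by 0.88 ± 0.18 as 1 of 16 glucuronosyltransferase genes. Of 77 cytochrome P450 genes 0 rose and 2 fell, Cyp26b1 and Cyp46a1 (-0.61 ± 0.12).

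Cdkn1a encodes p21, an inhibitor of cyclin-dependent kinases that p53 induces after DNA damage. It lay at -3.71, -3.71, -4.0 and -4.16 in controls and at -0.69, -1.92, -1.95, -2.31 and -1.62 with furan, with furan replicate 1 highest. No furan liver overlapped a control, and the change was 2.19 ± 0.17 (4.57-fold, adjusted p = 2.08e-05). Aen, an exonuclease gene induced by p53, lay at -0.57, -0.65, -0.45 and -0.51 in controls and 0.83, 0.67, 0.26, 0.47 and 0.93 with furan. Its change of 1.26 ± 0.098 (adjusted p = 2.08e-05) stood beside 1.29 at a second probe. Mdm2, the ubiquitin ligase that holds p53 in check, rose by 0.79 ± 0.11 (adjusted p = 0.00115), and Tnfrsf10b, a death receptor, by 0.77 ± 0.095 (adjusted p = 0.00075). Ddias, a gene named for suppressing damage-induced death, stood at -1.35, -1.49, -1.93 and -1.54 in controls, where 1 of 4 arrays measured it well above background, and at -0.025, 0.27, -0.54, -0.63 and -0.41 with furan. Its change was 1.31 ± 0.17 (adjusted p = 0.000878).

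Of genes for TGF-beta, activin and BMP signals and their partners, 3 of 31 rose and 0 fell (2 to 4 with 1 array left out; median 0.025). Gdf15, a stress cytokine that acts on appetite, lay at -0.22, -0.32, -0.80 and -1.01 in controls and 1.35, 0.46, 1.21, 0.58 and 1.69 with furan. It rose by 1.56 ± 0.17 (adjusted p = 0.000322) with similar within-slide differences of 1.57, 2.01, 1.26 and 1.59. Fst encodes follistatin, which binds and blocks activin, a brake on hepatocyte growth. It stood at -1.69, -1.64, -1.33 and -1.39 in controls and at -0.28, 0.95, -0.29, -0.52 and 0.024 with furan, highest in replicate 2. The groups did not overlap and the change was 1.52 ± 0.20 (adjusted p = 0.000958). Id1, a target of BMP signals, rose by 0.63 ± 0.13 and passed in 5 of the 9 fits without 1 array.

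Cell surface and chemokine genes gave single large changes rather than broad ones. Cxcl10, a chemokine that draws T cells, lay at -0.005, -0.065, 0.14 and -0.21 in controls and 1.87, 1.70, 1.03, 0.76 and 1.30 with furan. Its change was 1.45 ± 0.19 (adjusted p = 0.000918), without overlap. It was the 1 of 29 chemokine and chemokine receptor genes that passed (3.45%, beside 4.72% of all genes with a symbol). Tnfrsf12a, the receptor of TWEAK and a growth signal for liver progenitors, rose by 1.28 ± 0.17 (adjusted p = 0.00113), so that 2 of 16 tumour necrosis factor receptor genes rose with Tnfrsf10b. Nrg1, a ligand of ERBB receptors, rose by 0.61 ± 0.13 as 1 of 12 genes of the EGF receptor system, but passed in 2 of the 9 fits without 1 array. Among 40 interleukin and receptor genes 0 rose and 2 fell, Il1rap, a subunit of the IL-1 receptor (-0.74 ± 0.15), and Il18 (-0.43 ± 0.092). That is 5% of the family, near the 4.72% of all genes with a symbol, and each of the 2 passed in 4 of the 9 fits without 1 array. Adamts1, a matrix protease, rose by 0.88 ± 0.19 and Adam32 by 0.91 ± 0.12, and they passed in 5 and 9 of these 9 fits. Igfbp1, a stress-responsive IGF binding protein, rose by 1.10 ± 0.21 (adjusted p = 0.0124) and was the 1 of 18 growth hormone and IGF axis genes to pass (5.56%). It did not pass in 7 other settings, among them no slide in the model (1.06), the slide as a random block (1.08), plain background subtraction (0.35) and the scanner's signals (0.24).

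Jun, a component of the AP-1 transcription factor, lay at -3.94, -3.62, -3.45 and -3.90 in controls and at -1.36, -2.43, -1.79, -2.94 and -0.98 with furan. Each furan liver was above each control, but the within-slide differences of 2.58, 2.64, 1.02 and 0.95 were larger on slides 1 and 2, and the change was 1.79 ± 0.27 (adjusted p = 0.00229). For the stress factor gene Atf3 these slides were also the higher ones, with 2.11, 1.84, 0.17 and 0.38 in slides 1 to 4 and a change of 1.11 ± 0.27 (adjusted p = 0.0383), which passed in 3 of the 9 fits without 1 array (adjusted p up to 0.148). Dusp6, a phosphatase that switches off ERK, rose by 0.95 ± 0.17 (adjusted p = 0.00762), with 1.63, 1.33, 0.26 and 0.61 over the slides. Its relative Dusp8 rose by 0.75 ± 0.16, measured well above background on 1 of 4 control and 5 of 5 furan arrays. In all 2 of 20 MAP kinase phosphatases and feedback genes rose. The factor gene Klf6 rose by 0.63 ± 0.13, and the clock gene Clock by 0.61 ± 0.15 as 1 of 18 clock genes. Of 34 nuclear receptor genes 1 fell: Nr0b2, the bile acid-induced repressor SHP, lay at 2.29, 3.51, 4.90 and 3.13 in controls and 2.13, 2.60, 2.44, 2.62 and 2.42 with furan. The groups overlapped, and its change of -1.02 ± 0.27 (adjusted p = 0.0492) passed in 1 of the 9 fits without 1 array.

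Afp, the alpha-fetoprotein that fetal hepatocytes secrete and adult ones hardly make, had the smallest adjusted p of the named genes. Controls lay within a narrow range at -1.73, -1.79, -1.80 and -1.70, and furan livers at 0.72, 0.098, 0.42, -0.36 and 0.15. The change was 1.90 ± 0.13 (3.74-fold, adjusted p = 1.05e-05), with no overlap. Ly6d, a small surface protein, lay at -1.82, -1.87, -1.68 and -1.73 in controls and 0.24, -0.11, -0.23, -1.01 and -0.50 with furan, lowest in replicate 4. It rose by 1.43 ± 0.15 (adjusted p = 0.000317), and these were the 2 of 15 fetal liver genes that passed. Prom1, which encodes the progenitor and bile duct surface protein prominin 1, rose by 1.24 ± 0.15 (adjusted p = 0.00075) as 1 of 18 cholangiocyte and progenitor markers, but lay at 0.74 with plain background subtraction and 0.43 with the scanner's signals and passed under neither. The summed liver-channel signal of those 18 markers was 36237 to 41369 in controls and 36598 to 41434 with furan, and their part in the rise of Prom1 was not tested, and 2 of the 20 markers written did not pass the filter on dim probes. Tff3, a secreted trefoil peptide, rose by 1.29 ± 0.23 (adjusted p = 0.008) although the groups overlapped, because control 3 stood at 2.09 and furan replicate 1 at 1.53. Of 26 keratin and junction genes 2 rose, Krt18 of simple epithelia (0.58 ± 0.090, adjusted p = 0.00284) and Krt23 (0.87 ± 0.22, adjusted p = 0.042), and Krt23 lay at -0.027 on slide 1. In bulk liver a change in the number of cells of a type and a change in RNA per cell cannot be told apart.

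**Figure D2:**
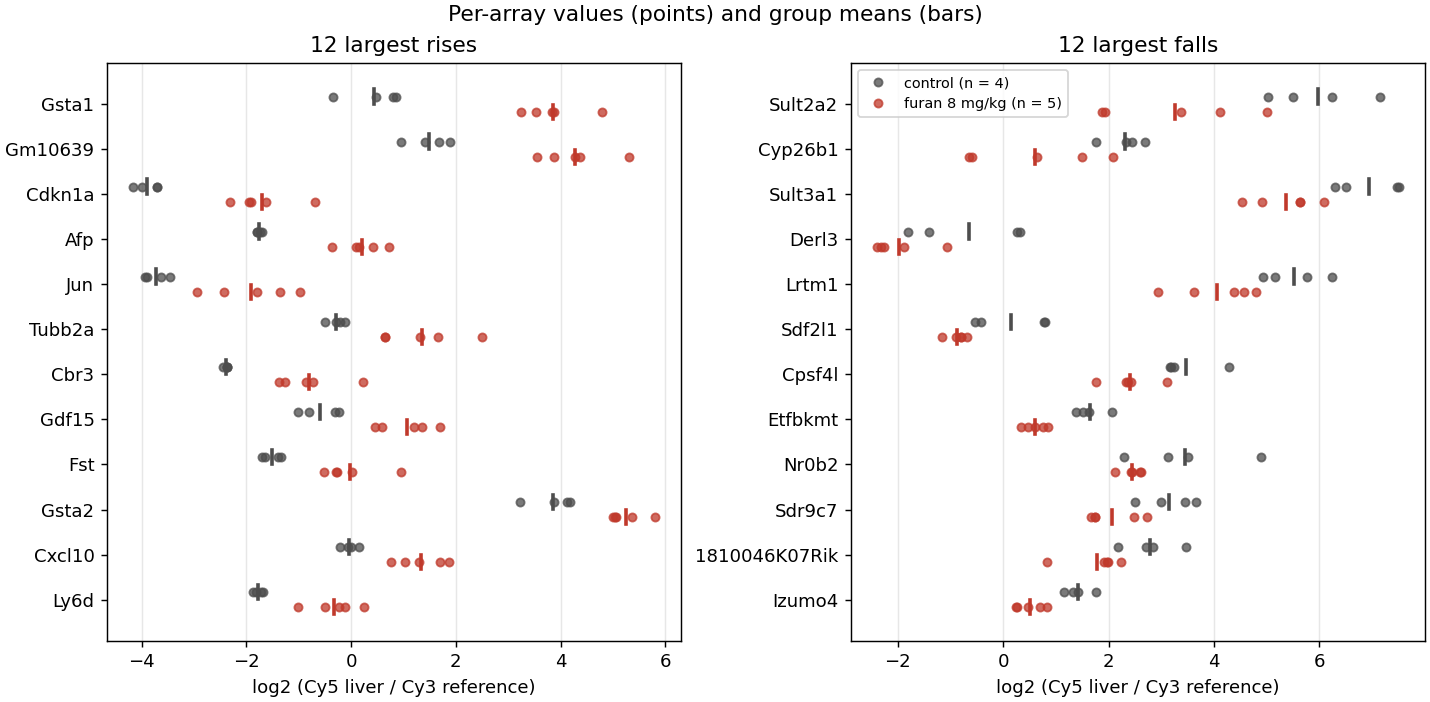
Log2 ratios of liver over reference RNA for the 12 largest named rises (left) and the 12 largest named falls (right); points are arrays, vertical bars are group means, grey for the 4 controls and red for the 5 livers at 8 mg/kg. The groups do not overlap for any of the rises shown, while they do for Cyp26b1, Derl3, Nr0b2, Sdr9c7 and 1810046K07Rik among the falls.

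Tubulins, the subunits of microtubules, included several rises. Of 13 alpha, beta and gamma tubulin genes 5 rose and 0 fell, 2 to 6 rose with 1 array left out, and 10 of 13 lay above 0. Tubb2a lay at -0.49, -0.12, -0.28 and -0.22 in controls and at 2.49, 1.67, 0.66, 1.32 and 0.64 with furan. No furan liver reached down to the controls, replicate 1 was highest, and the change was 1.76 ± 0.23 (3.39-fold, adjusted p = 0.000987). Tubb4b rose by 0.99 ± 0.17 (adjusted p = 0.00603), also without overlap. Tubb6 (0.71 ± 0.14), Tuba1c (0.64 ± 0.16) and Tuba1b (0.52 ± 0.14, adjusted p = 0.0498) rose with overlapping groups and passed in 7, 3 and 2 of the 9 fits without 1 array. The list's median was 0.30, against 0.002 over all genes, and lay at 0.68, 0.14, 0.30 and 0.24 in slides 1 to 4 and at 0.25 to 0.52 under 7 other scalings. Slide 1 had the largest difference for each of the 5 genes. Probes of tubulins can bind one another's transcripts, so the 5 are not independent measurements. Of 20 genes for tubulin folding and microtubule regulation 2 rose, the severing enzyme gene Spast (0.49 ± 0.095) and the plus-end protein gene Mapre1 (0.37 ± 0.087), whose second probe gave -0.14. Of 33 actin and actin-binding genes 0 passed in limma (10 at an unadjusted p under 0.05), with a median of 0.11.

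**Figure D3:**
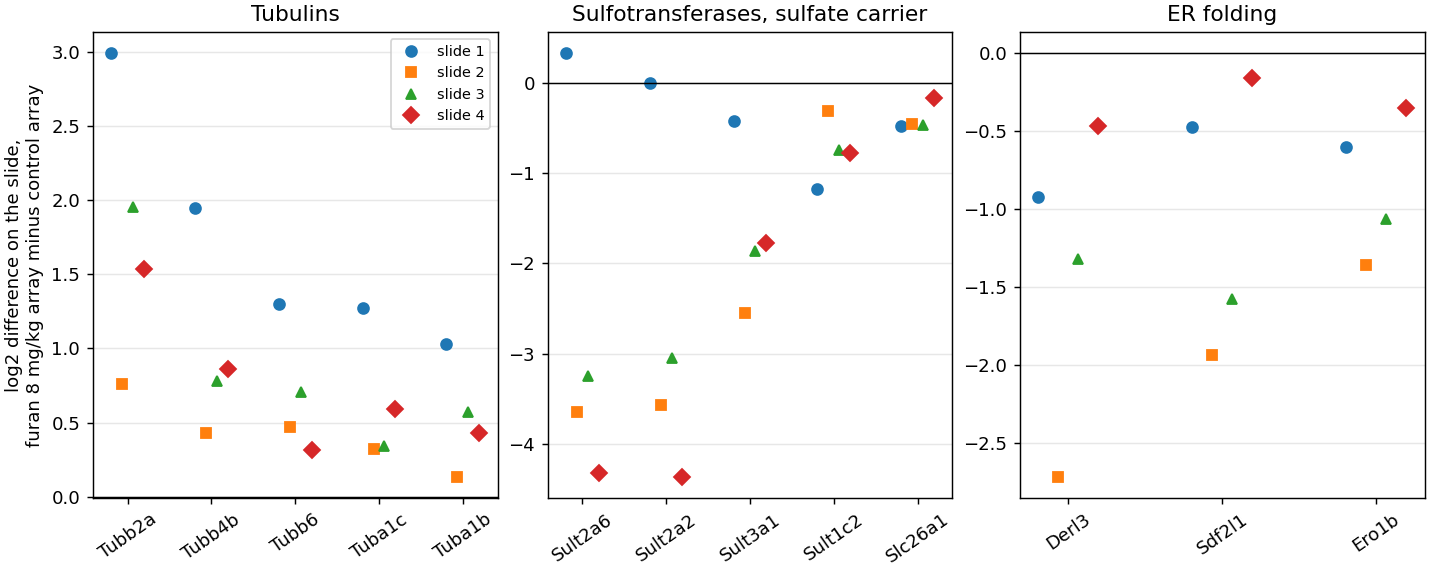
Log2 difference between the array at 8 mg/kg and the control array of the same slide, for slides 1 to 4, for tubulins, for sulfotransferases with the sulfate carrier Slc26a1, and for 3 genes of protein folding in the endoplasmic reticulum. Tubulin differences are largest on slide 1, where those of Sult2a2 and Sult2a6 lie at -0.004 and 0.32 against -3.04 to -4.36 on the other slides.

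Sulfotransferases, which join sulfate to steroids, bile acids and drugs, held the largest falls, and those of the Sult2a pair came from slides 2 to 4. Sult2a2 lay at 5.02, 5.50, 7.16 and 6.25 in controls and 5.01, 4.11, 3.38, 1.88 and 1.94 with furan. The change was -2.62 ± 0.65 (adjusted p = 0.0383), but within slides 1 to 4 it was -0.004, -3.57, -3.04 and -4.36, and furan replicate 1 had a level as high as the control beside it. Its paralog Sult2a6 had the same pattern (0.32, -3.65, -3.25 and -4.32; -2.64 ± 0.67, adjusted p = 0.042), with a second probe at -2.44, and the probes of this pair can bind each other's transcripts. Sult2a2 passed in 3 of the 9 fits without 1 array and Sult2a6 in 2 (adjusted p up to 0.137 and 0.15). Sult3a1, an amine sulfotransferase, lay at 6.51, 7.47, 7.50 and 6.31 in controls and 6.08, 5.64, 5.63, 4.53 and 4.92 with furan. It fell in each slide (-0.43, -2.56, -1.86 and -1.78) without overlap, with a change of -1.72 ± 0.26 (adjusted p = 0.00245), and passed in each of the 9 fits without 1 array. It did not pass in 4 other settings: it lay at -0.23 with plain background subtraction, -1.46 with the scanner's signals, -1.59 with 9 arrays and no slide and -1.48 with the replicate block. Sult1c2 changed by -0.71 ± 0.14 and the sulfate carrier gene Slc26a1 by -0.40 ± 0.082. In all 5 of 19 genes of sulfonation fell and 0 rose (1 to 5 fell with 1 array left out), and the median of -0.31 lay at -0.27 to -0.12 under 7 other scalings.

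Cyp26b1, which degrades retinoic acid, followed the same slides: it lay at 1.77, 2.69, 2.45 and 2.34 in controls and at 1.5, -0.66, 2.09, 0.64 and -0.59 with furan. The groups overlapped at furan replicate 3, above control 1, and the change was -1.92 ± 0.40 (adjusted p = 0.0193). Rdh9, a retinol dehydrogenase, changed by -0.52 ± 0.14. In all 2 of 27 retinoid and vitamin genes fell. Sdr9c7, a member of the short-chain dehydrogenases, lay at 2.99, 3.44, 3.66 and 2.51 in controls and 1.75, 2.72, 1.75, 2.48 and 1.67 with furan. Its change was -1.02 ± 0.20 (adjusted p = 0.0149) with overlap, and it lay at -0.030 on slide 4.

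Of 29 genes for protein folding in the endoplasmic reticulum (ER) 3 fell with furan. Derl3, a membrane protein that helps remove misfolded proteins, stood at -1.40, 0.32, 0.26 and -1.80 in controls and -2.32, -1.06, -1.89, -2.27 and -2.39 with furan. Controls 2 and 3 were high and controls 1 and 4 low, the groups overlapped, and the change was -1.35 ± 0.33 (adjusted p = 0.0361). Sdf2l1, a partner of the chaperone BiP, lay at -0.42, 0.79, 0.77 and -0.54 in controls and -0.90, -0.80, -0.79, -0.69 and -1.15 with furan. The same 2 controls were high, there was no overlap, and the change was -1.07 ± 0.24 (adjusted p = 0.0244). Ero1b, an oxidase that makes disulfide bonds, changed by -0.86 ± 0.15 (adjusted p = 0.00689) and passed in each of the 9 fits without 1 array, while Derl3 passed in 3 and Sdf2l1 in 4. Of the 29 folding genes 0 rose and 26 did not pass (1 to 6 fell with 1 array left out). The median was -0.30, at 0.017, -0.85, -0.47 and -0.040 in slides 1 to 4, so that it rested on slides 2 and 3, the slides of the high controls. Among 28 genes of ER translocation and glycosylation 1 fell, Srp54a (-0.39 ± 0.083), and of 28 vesicle coat and Golgi genes 0 passed in limma (4 at an unadjusted p under 0.05).

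Chaperones of other compartments lay on the other side of 0 or near it. The mitochondrial chaperone gene Hspd1 rose by 0.42 ± 0.088 and the protease subunit gene Clpx by 0.90 ± 0.20, 2 of 25 genes of mitochondrial import and stress, although Clpx lay at -0.17 on slide 2. Hspd1 passed in 4 and Clpx in 3 of the 9 fits without 1 array, and Clpx did not pass with the authors' deposited ratios. The cytosolic co-chaperone gene Dnaja1 rose by 0.53 ± 0.12, with -0.24 at a second probe, and Cct5, a subunit of the chaperonin that folds tubulin and actin, by 0.45 ± 0.10, 1 of 15 chaperonin and prefoldin genes. Dnaja1 and Cct5 each passed in 4 of the 9 fits without 1 array, and Dnaja1 did not pass with the mean of its probes. Of 38 proteasome genes 0 passed in limma (5 at an unadjusted p under 0.05), with a median of 0.015. Among 26 ubiquitin and deubiquitinating enzyme genes Mdm2 rose and Ube2n, an E2 enzyme for ubiquitin chains, changed by -0.37 ± 0.087, with 0.16 at its second probe. The ubiquitin ligase gene Trim25, which serves RNA sensing, rose by 0.64 ± 0.085 (adjusted p = 0.00106) and the deubiquitinase gene Usp1 by 0.40 ± 0.082.

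A few genes of ribosomes and protein synthesis rose, by small amounts. Rps27l, a p53-induced relative of a ribosomal protein, led the ribosomal list at 0.63, 0.82, 1.01 and 0.69 in controls and 1.39, 1.46, 0.95, 1.29 and 1.37 with furan. The groups overlapped at furan replicate 3, and the change was 0.58 ± 0.084 (adjusted p = 0.00177). Rps14, Rpl19 and Rpl7 rose by 0.36 to 0.43, and in all 5 of 40 rose and 0 fell (1 to 3 rose with 1 array left out). All 40 lay above 0, with a median of 0.25 (0.51, 0.17, 0.11 and 0.25 in slides 1 to 4), and the median was 0.061 with the liver channel alone. At 1 mg/kg Rps14, Rpl19 and Rpl7 lay at 0.29, 0.25 and 0.28, and 8 against 1 mg/kg did not pass for any of them. In the nucleolus, where ribosomes are assembled, 4 of 33 genes rose and 0 fell: Nop58 (0.55 ± 0.14), Ddx21 (0.42 ± 0.096), Nhp2 (0.38 ± 0.093) and Gar1 (0.37 ± 0.091). The list's median was 0.17 (0.17 to 0.38 under 7 other scalings), and 0 to 6 rose with 1 array left out. Of 32 translation factor genes Eif5 (0.38 ± 0.093) and Eif4ebp1 (0.30 ± 0.077) rose and Eef2k, the kinase that slows elongation, changed by -0.33 ± 0.079. Cars and Gars, which charge tRNA with cysteine and glycine, rose by 0.56 ± 0.085 and 0.47 ± 0.089, 2 of 22 synthetase genes, and passed in each of the 9 fits.

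In the nucleus, 8 of 88 genes named as RNA-binding motif or splicing factors rose and 0 fell (2 to 8 with 1 array left out; median 0.072), led by Hnrnpll (0.51 ± 0.096), Hnrnpab (0.43 ± 0.093) and Hnrnpa2b1 (0.42 ± 0.084). Of 35 chromatin modifier genes 4 rose and 0 fell: Eed of the Polycomb complex (0.41 ± 0.084), the demethylases Kdm3a (0.38 ± 0.082) and Kdm2b (0.29 ± 0.077), and the methyltransferase Setd2 (0.31 ± 0.076). None of these 4 passed in each of the 9 fits without 1 array, where 0 to 3 of the list rose. The chromatin list's median was 0.17, with 27 of 35 above 0. Histone genes went both ways: H1f2 (0.70 ± 0.15), H2az1 (0.49 ± 0.11) and H3f3b (0.47 ± 0.11) rose, and H2bc21 (-0.46 ± 0.099) and H1f0, the linker histone of resting cells (-0.35 ± 0.091), fell, out of 15 (33.3% passed, beside 4.72% of all genes with a symbol). With 1 array left out 0 to 3 of the list rose and 0 to 1 fell. H1f2 passed in 6, H2az1 and H2bc21 in 4 and H3f3b in 3 of these 9 fits. Of 294 Zfp zinc finger genes 6 rose and 2 fell, with the largest change in Zfp467 (-0.71 ± 0.12, adjusted p = 0.00647).

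Among enzymes of amino acid breakdown and of the urea cycle, those that passed fell. Csad, which makes taurine from cysteine, lay at 1.56, 2.16, 2.01 and 2.23 in controls and at 0.51, 2.23, 1.11, 1.18 and 0.95 with furan. It changed by -0.75 ± 0.17 (adjusted p = 0.0305), although slide 3 had a difference of 0.22 and the groups overlapped. Pccb (-0.42 ± 0.10) and Mccc2 (-0.38 ± 0.10), carboxylases of branched-chain breakdown, and the aminotransferase gene Agxt2 (-0.41 ± 0.10) fell as well. In all 4 of 42 amino acid breakdown genes fell and 0 rose (0 to 3 fell with 1 array left out), with a median of -0.099 that turned positive under median centring. In the urea cycle and ammonia list 2 of 14 fell, Glul, which makes glutamine from ammonia around the central vein (-0.35 ± 0.089), and Cps1, the first enzyme of the cycle (-0.34 ± 0.082, adjusted p = 0.0347). Its median was -0.23, and 12 of 14 genes lay below 0, but slides 1 to 4 gave -0.30, -0.18, -0.39 and 0.023, and each of the pair passed in 1 of the 9 fits without 1 array. Of 36 nucleotide synthesis genes Ctps2 rose (0.44 ± 0.094) and Dpyd, which breaks down pyrimidines, changed by -0.67 ± 0.14.

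Slc2a5, the fructose transporter GLUT5, lay at 5.02, 4.82, 5.4 and 4.72 in controls and 3.80, 4.30, 3.76, 4.04 and 4.04 with furan. The groups did not overlap, the within-slide differences were -1.22, -0.78, -1.09 and -0.69, and the change of -0.94 ± 0.11 (adjusted p = 0.000439) passed under all 25 other settings. Of 30 glycolysis genes Ldha (0.40 ± 0.099) and Ldhb (0.31 ± 0.082) rose, and Pfkfb1 (-0.60 ± 0.14) and Pklr (-0.57 ± 0.13), which drive liver glycolysis in the fed state, fell. Acacb, which makes the malonyl-CoA that blocks fatty acid entry to mitochondria, changed by -0.88 ± 0.13 (adjusted p = 0.00199), and a second probe gave -0.91. The elongase gene Elovl3 changed by -0.94 ± 0.18 and was well above background on 4 of 4 control and 4 of 5 furan arrays. Cidec, which fuses lipid droplets, rose by 1.30 ± 0.26 (adjusted p = 0.0137), but lay at -0.72 under plain background subtraction. Lpl, which takes up lipid from lipoproteins, rose by 0.96 ± 0.19 and the hepatic lipase gene Lipc changed by -0.33 ± 0.074, the 2 of 29 lipoprotein genes that passed. Of 33 complex I genes, 22 TCA cycle genes, 22 glycogen and sugar genes and 27 serine and one-carbon genes 0 passed in limma (5, 5, 6 and 6 at an unadjusted p under 0.05), and of 34 genes of complexes II to V 1 rose, Cox6a1 (0.41 ± 0.096).

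Transporters and carbonic anhydrases changed in single members. Car2, which interconverts carbon dioxide and bicarbonate, lay at 2.18, 2.47, 2.89 and 2.08 in controls and 3.52, 3.96, 3.15, 3.29 and 3.36 with furan. It rose by 1.13 ± 0.13 (adjusted p = 0.000365) with even within-slide differences of 1.34, 0.89, 1.07 and 1.21. Car15 rose by 0.88 ± 0.11 (adjusted p = 0.000716), so that 2 of 13 carbonic anhydrase genes rose, both without overlap, and both passed in each of the 9 fits. Among 276 solute carrier genes 9 rose and 9 fell. Slc22a29 rose by 1.21 ± 0.17 (adjusted p = 0.00136) and Slc22a27 by 0.75 ± 0.13, both of the organic anion carriers. Slc22a26, of the same Slc22a symbols, was among the 9 that fell, so these carriers went both ways. Slco2b1 (-0.58 ± 0.12), the betaine carrier Slc6a12 (-0.44 ± 0.084), the glutamate carrier Slc1a2 (-0.38 ± 0.087) and the copper carrier Slc31a1 (-0.40 ± 0.086) fell. The bile acid uptake carrier Slc10a1 rose by 0.40 ± 0.10, with -0.26 at a second probe, and passed in 0 of the 9 fits without 1 array. Abcb10, a mitochondrial carrier, was the 1 of 42 ABC transporter genes that passed (-0.48 ± 0.099), and Kcnk10 the 1 of 74 channel genes (-0.89 ± 0.19).

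Hmox1, which breaks down heme and releases iron, led the metal list at -1.95, -1.96, -1.70 and -2.13 in controls and -0.32, -1.24, -0.84, -1.28 and -0.49 with furan. It rose by 1.10 ± 0.18 (adjusted p = 0.0043) without overlap, and a second probe gave 0.59. The ferritin genes Ftl1 (0.40 ± 0.097) and Fth1 (0.37 ± 0.087), which store iron, and the plasma ferroxidase gene Cp (0.39 ± 0.10) rose by less, and each of these 3 passed in 1 of the 9 fits without 1 array. In all 4 of 33 metal genes rose and 1 fell (1 to 4 rose with 1 array left out). At 1 mg/kg Ftl1, Fth1 and Cp lay at 0.28, 0.30 and 0.37, and Hmox1 at 0.079.

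Of secreted plasma proteins, 13.3% of protease inhibitor genes and 9.52% of complement and coagulation genes passed, beside 4.72% of all genes with a symbol. Serpina7, thyroxine-binding globulin, lay at 1.70, 2.09, 2.28 and 1.75 in controls and 3.52, 3.31, 2.61, 2.33 and 2.99 with furan. It rose by 1.03 ± 0.21 (adjusted p = 0.0152) without overlap. Itih5 (0.91 ± 0.12), which binds hyaluronan, and Spink1 (0.72 ± 0.13), a trypsin inhibitor, rose and Serpina11 (-0.56 ± 0.11) fell, so that 3 of 30 protease inhibitor genes rose and 1 fell. Serpina7 and Serpina11 each passed in 5 of the 9 fits without 1 array, and Itih5 and Spink1 in each of the 9. Without the slide in the model none of these protease inhibitor genes passed. Of 42 complement and coagulation genes the factor X gene F10 rose (0.45 ± 0.087) and Pros1 (-0.43 ± 0.11), Masp1 (-0.42 ± 0.10) and C4b (-0.32 ± 0.080) fell. With 1 array left out C4b passed in 0, Pros1 in 1, Masp1 in 2 and F10 in 8 of the 9 fits, and 0 to 2 of the list fell. F10 passed under 2 of 7 other scalings and lay at 0.073 with the liver channel alone. Of 8 major urinary protein genes 0 passed in limma (1 at an unadjusted p under 0.05).

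Further large falls were in single genes of unlike function. Lrtm1 lay at 5.16, 4.93, 6.24 and 5.77 in controls and 4.38, 4.56, 3.63, 4.79 and 2.93 with furan, without overlap. It changed by -1.29 ± 0.24 (adjusted p = 0.0107). Cpsf4l lay at 3.25, 3.19, 4.28 and 3.17 in controls and 1.77, 3.11, 2.33, 2.42 and 2.37 with furan, again without overlap, and changed by -1.03 ± 0.12 (adjusted p = 0.000413), but stood at 0.32 under plain background subtraction. Etfbkmt, a methyltransferase of an electron transfer flavoprotein, lay at 1.39, 1.64, 2.07 and 1.51 in controls and 0.34, 0.48, 0.75, 0.61 and 0.85 with furan. The change was -1.03 ± 0.15 (adjusted p = 0.002). For Izumo4 the controls lay at 1.33, 1.16, 1.76 and 1.41 and the furan livers at 0.26, 0.47, 0.69, 0.84 and 0.23. Its change was -0.95 ± 0.13 (adjusted p = 0.00136) and, like that of Etfbkmt, passed under all 25 other settings. The transcript 1810046K07Rik lay at 2.83, 2.17, 3.46 and 2.71 in controls and 1.97, 2.25, 1.91, 1.98 and 0.83 with furan, with overlap, and changed by -0.98 ± 0.21. Bbs10, a chaperonin-like gene of cilia (-0.89 ± 0.10), 4930581F22Rik (-0.88 ± 0.11) and S1pr5, a sphingosine 1-phosphate receptor (-0.88 ± 0.21) also fell. Bbs10 and 4930581F22Rik passed in each of the 9 fits without 1 array, but 1810046K07Rik in 6 and S1pr5 in 3.

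**Figure D4:**
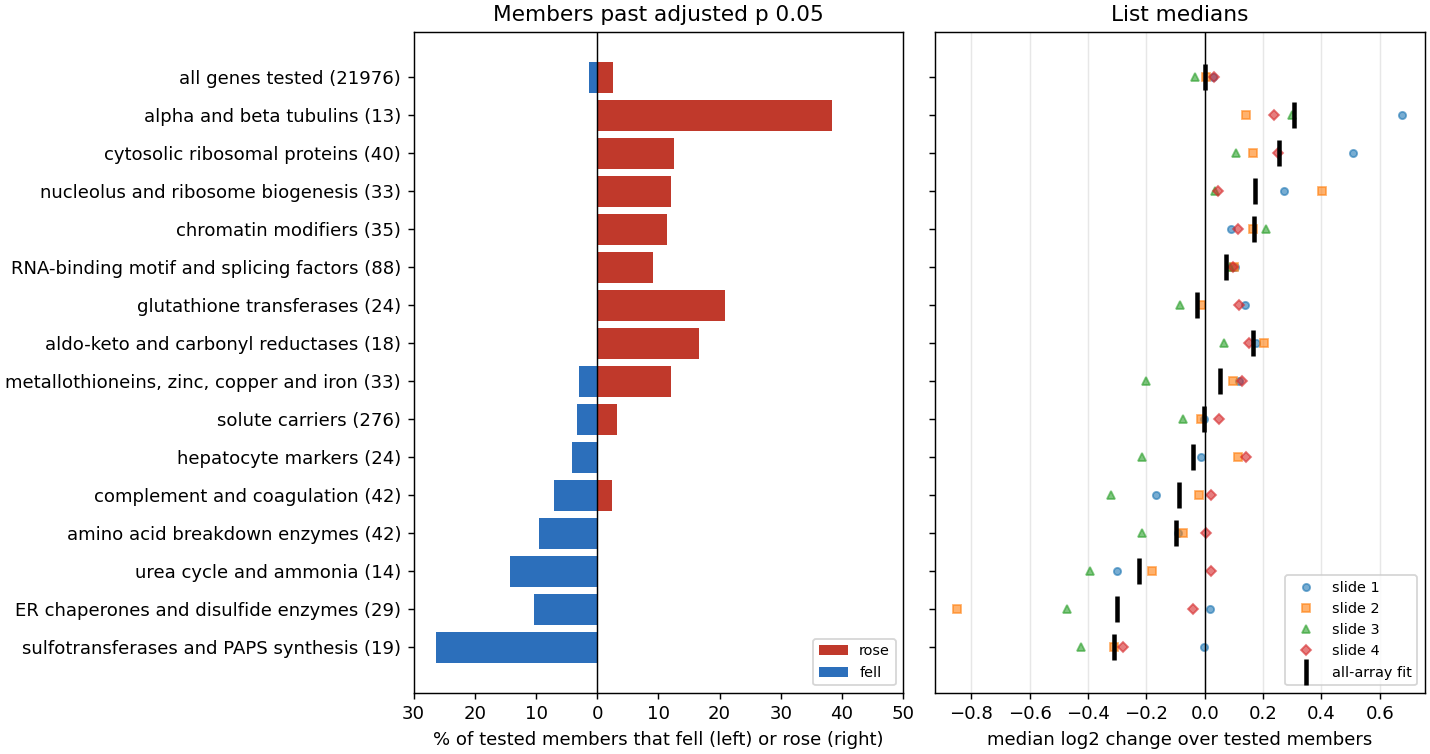
Left, the share of tested members of 15 gene lists that rose (red) or fell (blue), beside all genes tested, with the number tested in parentheses. Right, the median log2 change of each list in the fit of all arrays (black) and on slides 1 to 4 (coloured); tubulins have the largest share that rose (5 of 13) and sulfotransferases the largest that fell (5 of 19), while slide 1 gives the highest tubulin median and a sulfotransferase median near 0.

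Other lists had few or no members that passed, at a background of 3.96% of all genes and 4.72% of those with a symbol. No member passed among 20 annexin and S100 genes, 22 YAP and TEAD target genes, 26 WNT and Notch genes, 64 Rab GTPases, 22 integrins and 43 orphan and adhesion G-protein-coupled receptors. At an unadjusted p under 0.05 in limma these lists held 3, 5, 6, 12, 1 and 2 genes, and 20.2% of all genes lay under that value. Of 38 autophagy and lysosome genes 2 rose, and of 37 collagen and laminin genes 1. Of 8203 genes without a symbol 2.68% passed, and of 13773 with one 4.72%. The largest rise without a symbol was 3.74 ± 0.41 (13.3-fold, adjusted p = 0.000341), with group means of 0.265 in controls and 3.90 with furan, and the largest fall was -1.37 ± 0.14 (adjusted p = 0.000252). Well above background on no control array were 9 of the 577 rises, for which a fitted change is no exact fold.

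Few markers of other liver cell types passed. Of 21 Kupffer cell and macrophage markers Ctss, a lysosomal cathepsin, rose (0.39 ± 0.10), with 0.37 at 1 mg/kg, and it passed in 1 of the 9 fits without 1 array. The summed signal of those 21 markers was 48389 to 63410 in controls and 52100 to 70583 with furan, and Cd68, Ccr2 and Ly6c2 did not pass the filter on dim probes. Of 20 sinusoidal endothelial, 21 stellate cell, 16 lymphocyte and 8 neutrophil markers 0 passed in limma (2, 3, 1 and 0 at an unadjusted p under 0.05). Their summed signals were 52115 to 57411, 74044 to 95294, 17897 to 19840 and 28796 to 37544 in controls and 45421 to 55505, 65395 to 89005, 15321 to 21928 and 33218 to 42687 with furan. Of 14 erythroid, pancreas, adipose and gallbladder markers the pancreatic amylase gene Amy2a5 fell (-0.73 ± 0.11, adjusted p = 0.00235), with -0.20 at a second probe. The list's summed signal was 135038 to 250132 in controls and 129707 to 192437 with furan, and 10 of its 24 genes did not pass the filter, among them Amy2b, Prss2, Pnlip and Cpa1 of pancreas. The part of these cells in the changes reported was not tested.

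The lower dose was set beside the higher one for the same genes. The comparisons of both doses with control share the 4 control arrays, so values are set side by side without a test of likeness. The named genes were picked mainly for changes at 8 mg/kg, and the test of 8 against 1 mg/kg uses those arrays again. A high share of them that passes there is partly built in and is no separate support. At 1 mg/kg 0 genes passed against control in limma (1511 at an unadjusted p under 0.05), while 8 against 1 mg/kg gave 1143 of 21976 genes (5.2%). Of the 20 largest named rises 19 passed in 8 against 1 mg/kg, with medians of 0.13 at 1 mg/kg and 1.48 at 8 mg/kg against control. The one that did not pass was Cidec (0.54 at 1 mg/kg and 1.30 at 8 mg/kg, adjusted p = 0.0775 for the difference). Of the 20 largest falls 16 passed, with medians of -0.17 and -1.0. Sult2a2 (-0.89 at 1 mg/kg, adjusted p = 0.109), Derl3 (-0.27, adjusted p = 0.0516), Sdf2l1 (-0.35, adjusted p = 0.0686) and Nr0b2 (-0.21, adjusted p = 0.0719) did not pass, which does not show that the doses act alike. Of all 145 genes named here with values, 98 passed in limma's test of 8 against 1 mg/kg, and 48 without the slide in the model.

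**Figure D5:**
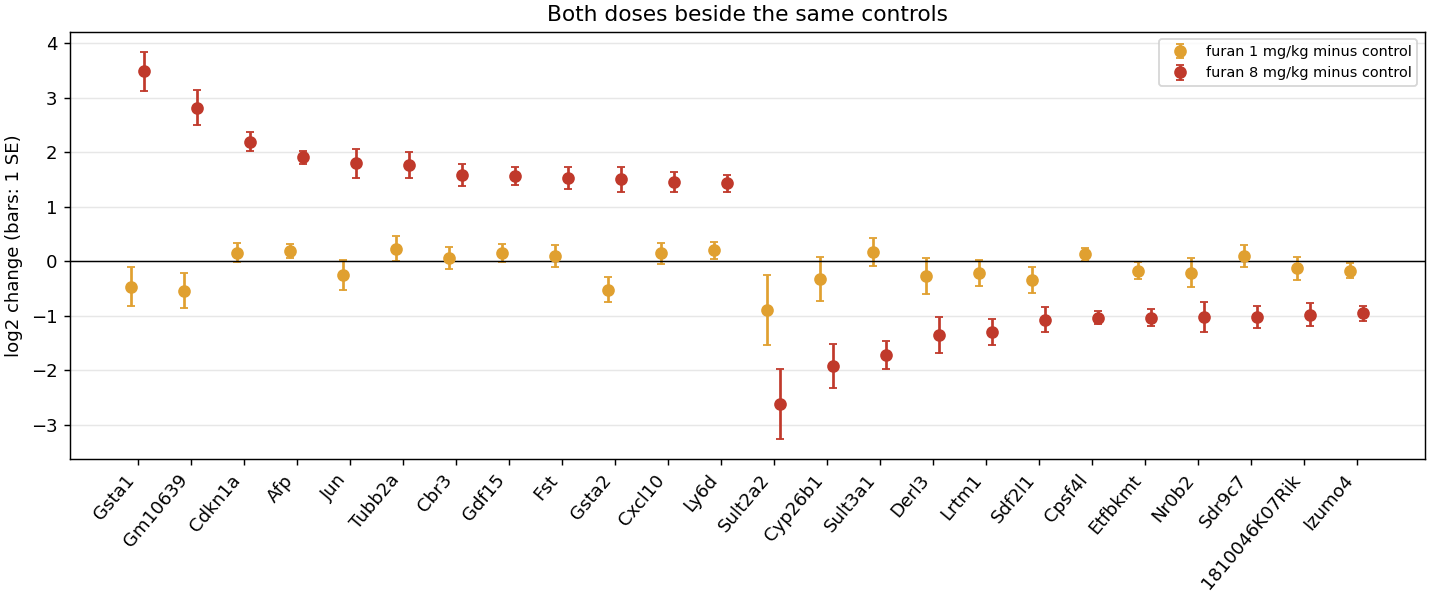
Log2 change against the same 4 controls at 1 mg/kg (yellow) and at 8 mg/kg (red) for the 12 largest named rises and 12 largest named falls, with bars of 1 SE. At 1 mg/kg the changes lie on both sides of 0 (medians of 0.13 over the 20 rises and -0.17 over the 20 falls), with Gsta1, Gm10639 and Gsta2 at -0.47, -0.54 and -0.52 and Sult2a2, with the widest error bar, at -0.89.

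Other probes of the same genes gave a further reading on the same arrays. Of the called genes, 168 had another probe past the filter, and for 131 of them (78.0%) all other probes had the same sign, against 64.8% of 3204 genes that were not called. For 92 (54.8%) another probe had the same sign with an unadjusted p under 0.05 in limma. The other probes gave smaller changes: a median of 0.19 against 0.42 for the brightest probe of genes that rose, and of -0.30 against -0.45 for genes that fell.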

How the data were processed

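Liver RNA labelled with Cy5 was hybridised with a common mouse reference RNA labelled with Cy3 to 2-colour Agilent arrays, per the labels' protocols. The deposited scanner files, read with Feature Extraction 10.7.3.1 per the file headers, hold spot and background intensity for 62976 features. Intensity values were corrected here with normexp (offset 50) and loess in limma 3.58.1 (R 4.3.3, data.table version 1.17.8), and become log2 of Cy5 over Cy3. The authors' deposited table holds a linear ratio per probe, normalized in a way the labels do not state, and served as an alternative. Spots flagged as outliers were left out. Probes well above background on at least 4 of the 14 arrays were kept (28867 of 55681), and the brightest probe stood for a gene. Transcript accessions in the scanner files, matched to RefSeq (GRCm38.p6), named 26413 probes, and 29268 have no symbol here. One limma model fitted all 14 arrays with dose group and slide, with Benjamini-Hochberg adjustment over all genes and a threshold of 0.05. It was tested on simulated data. Promoters were searched with Python 3.11.15 and pandas 2.3.3.

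Genes were named by rule: the 20 largest rises and 20 largest falls that had a symbol, were detected above background throughout at least 1 of the groups, and had the same sign on all 4 slides that hold both groups, up to 6 passing members of each gene list (up to 2 with the smallest p where fewer than 2 pass), and up to 3 of each symbol family. The members and lists were chosen with earlier results of these data known. Furan replicate 3, on a slide with no control, bears on the comparison only through the 1 mg/kg array beside it. P-values set the slide-adjusted difference between groups against the spread left between arrays, pooled over the dose groups and moderated across genes by limma. That spread holds differences between mice and between arrays alike, and the number of arrays limits precision. Results on a few genes are not reported here. Alternatives changed the background correction, normalization, probe filter, model or arrays. No value column belonged to no sample (0).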

Additional observations from a re-analysis of the deposited data

Results flagged for a closer look

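In 13 of the 290 groups of 4 controls or 5 furan livers tested among the named genes (4.48%) a single array stood far from the others of its group, and chance gives about 1 in 20. Control replicate 3 was the array in 5 of the 13. It was highest for Ces2b (5.29, against 4.15 to 4.30 in the other controls), for Cpsf4l (4.28, against 3.17 to 3.25), for Agxt2 (7.30, against 6.32 to 6.44) and for Slc26a1 (8.53, against 7.43 to 7.56), and it was lowest for H1f0 (-1.07, against -0.72 to -0.66). Furan replicate 2, on the same slide, was highest for Tff3 (3.60, against 1.53 to 2.04) and for Itih5 (3.47, against 2.56 to 2.71), and lowest for H1f0 (-1.40, against -1.08 to -0.98).

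Furan replicate 5 was lowest for 1810046K07Rik (0.827, against 1.91 to 2.25) and for Acacb (2.73, against 2.97 to 3.06). Furan replicate 1 was highest for Tubb4b (0.33, against -0.65 to -0.39), and furan replicate 4 was lowest for Nrg1 (-2.23, against -1.50 to -1.25). Control replicate 1 was lowest for Adamts1 (-2.33, against -1.97 to -1.90). The part of the slide in these values was not tested.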

How the results depend on the processing

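The count of genes called at 8 mg/kg against control, 870, was within 1.5 times of itself under the authors' deposited ratios (641), no background correction (822), quantile scaling of the log ratios (1053), the mean of a gene's probes (795), no probe filter (798), a filter for detection on every array of control or of 8 mg/kg (974) and the slide as a random block (808). It moved to 1351 with median centring (1302 rises and 49 falls, against 577 and 293), 1334 with the liver channel alone (717 and 617) and 290 with the scanner's processed signals (238 and 52). It moved to 237 with plain background subtraction, 276 without the slide, 306 with the 9 arrays and the slide (where furan replicate 3, alone on its slide, carries no information), 141 with the 9 arrays and no slide, and 395 without slide 3. Leaving out 1 array gave 311 to 768.

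Replicate numbers are shared between groups, but only numbers 1 and 4 share a slide. Deviations of same-numbered arrays had correlations of 0.18, -0.14, -0.31 and 0.16 for numbers 1 to 4. These 4 values cannot decide whether the numbers pair the mice, because the positive ones are those that share a slide. The numbers were not used as pairs in the main fit. With the replicate number as a block in place of the slide 121 genes passed.

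Of the 145 named genes, those past the threshold at 8 against 1 mg/kg went from 98 to 48 without the slide. Cidec and Cpsf4l changed sign under plain background subtraction (-0.72 and 0.32). Of the 144 called, 121 did not pass in at least 1 of 25 settings and 31 passed under all 7 scalings. Probes not well above background on part of a group's arrays limit the values of Ddias, Dusp8 and Elovl3.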
